A study of Homo sapiens with 9 samples.

Results

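The last 5 steps of glycolysis and the carriers that take lactate out of the cell were followed through 10 genes, *GAPDH*, *PGK1*, *PGAM1*, *ENO1*, *ENO2*, *PKM*, *LDHA*, *LDHB*, *SLC16A1* and *SLC16A3*. They were taken by symbol from the deposited table of 60591 gene symbols, and all 10 were found and passed the expression filter that left 15944 genes. The libraries came from undifferentiated Caco-2 (uCaco-2), proliferating cells of a human colon adenocarcinoma line. For 24 h the cells were kept in control medium, with 300 μM cobalt (II) chloride (CoCl2) or with 5 μM of the oxyquinoline derivative 4896-3212 (OD), in 3 biological replicates each. The medium held 0.5% DMSO in every condition, control included. Both agents are used as chemical inducers of hypoxia-inducible factor (HIF), so that the comparison describes a chemical model at one time point in one cell line and not cells at low oxygen. In bulk libraries, fewer cells of a kind and less RNA per cell cannot be told apart.

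The enzymes of lower glycolysis turn glyceraldehyde 3-phosphate into pyruvate and yield ATP at the phosphoglycerate kinase and pyruvate kinase steps. Lactate dehydrogenase then reduces pyruvate to lactate, which regenerates the NAD+ that the GAPDH step needs, and monocarboxylate transporters (MCT) carry lactate and a proton across the membrane. Several steps are shared by paralogs: ENO1 is the ubiquitous and ENO2 the neuronal-type enolase, the M subunit of LDH encoded by *LDHA* is associated with pyruvate reduction and the H subunit encoded by *LDHB* with lactate oxidation, and MCT4 (*SLC16A3*) is typical of lactate-exporting cells while MCT1 (*SLC16A1*) is broadly expressed. Many of these genes are textbook HIF-1 targets, and HIF binds hypoxia response elements with the core ACGTG or GCGTG.

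The promoter stretches of the 4 genes called higher with both treatments are shown first. ACGTG or GCGTG was held by 8 of the 9 genes with a promoter window, *LDHB* included, and is not particular to these 4. The sequences are RefSeq windows on GRCh38.p14, all on the plus strand, read 5′ to 3′. Capitals mark ACGTG or GCGTG on either strand (CACGT and CACGC are the reverse strand), and positions are counted in bases from the start site of transcription.
PGK1: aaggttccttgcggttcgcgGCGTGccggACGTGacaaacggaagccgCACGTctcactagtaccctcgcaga
ENO2: acccgcgctcgtACGTGcgcctccgccgg
LDHA: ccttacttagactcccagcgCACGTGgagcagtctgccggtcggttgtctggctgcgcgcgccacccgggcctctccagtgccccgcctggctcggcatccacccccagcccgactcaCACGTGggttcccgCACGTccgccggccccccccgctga
SLC16A3: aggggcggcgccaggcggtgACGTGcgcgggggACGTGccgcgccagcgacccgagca

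The *PGK1* stretch lies at chrX:78104017-78104089, from -231 to -159, with 2 ACGTG and 1 GCGTG. The *ENO2* stretch lies at chr12:6914450-6914478, from -130 to -102, within exons of other *ENO2* transcripts, and holds 1 match. The *LDHA* stretch lies at chr11:18394358-18394514, from -205 to -49, with 3 runs in capitals, 2 of them the palindrome CACGTG that reads as ACGTG on both strands. The *SLC16A3* stretch lies at chr17:82228954-82229011, from -88 to -31, with 2 matches. Of the 10 genes, 9 had a RefSeq window of 250 bases before to 50 after the start, in 14 windows, because *LDHA* had 2 and *SLC16A3* had 5. ACGTG was held by 5 of the 14 windows, 1 for each of 5 genes (*GAPDH* was the other), and either core by 11 windows of 8 genes. *ENO1*, *PKM* and *LDHB* held only GCGTG, and the 1 window of *PGAM1* held neither. The start site of this window lies 1627 bases from that of the canonical *PGAM1* transcript, whose own promoter was thus not searched. For the *GAPDH* window this distance is 747 bases. Over all 35116 windows of the same length, 21.4% held ACGTG, 36.5% held GCGTG and 48.4% held at least 1 of them. A match describes these letters only and does not show that HIF binds there.

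Total counts ranged from 15998136 to 24209427 per library. The TMM factors of edgeR, which correct for shifts in the composition of a library, were 0.770 to 0.795 under CoCl2, 1.14 to 1.15 under OD and 1.11 to 1.12 in control cells, so that levels under CoCl2 depend on the scaling more than those under OD. Over all tested genes the median log2 change under CoCl2 moved from -0.049 to -0.55 when libraries were scaled by their size alone. The summed level of 10 intestinal epithelial markers was 10290 to 10766 CPM (counts per 1000000 of the TMM-scaled library) in control cells, 12151 to 13035 under CoCl2 and 9884 to 10403 under OD, and *CDX1* was at 0 throughout. With CoCl2, *VIL1* and *KRT20* of these were called lower and *LGALS4* higher, where 43.2% of all tested genes were called. *LGALS4* was near the floor, at 0.484, 0.245 and 0.280 CPM in control cells and 0.373, 2.55 and 0.629 under CoCl2. Its libraries overlapped between these conditions. The 10 markers of immune, endothelial and stromal cells summed to 20.9 to 35.6 CPM in all libraries, and *PTPRC*, *DCN* and *ACTA2* had no count in control cells. The part of these differences in the results was not tested.

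The 10 genes together took 0.867% ± 0.026 (SD, n = 3) of all counts in control cells, 1.60% ± 0.016 under CoCl2 and 1.72% ± 0.015 under OD. The order of the treatments turned with TMM factors, since the summed level was then 7605 to 8102 CPM in control cells, 19874 to 20806 under CoCl2 and 14877 to 15254 under OD. Per kilobase of the canonical transcript, *GAPDH* was the most abundant in every condition, with 2182 ± 87.1 CPM per kb (SD, n = 3) in control cells. *ENO1* followed with 1019 ± 44.1 CPM per kb, *PKM* with 538 ± 21.8, *LDHA* with 442 ± 6.01 and *PGK1* with 131 ± 3.34. *SLC16A1*, *PGAM1* and *LDHB* lay at 44.5 ± 1.82, 43.6 ± 1.75 and 38.9 ± 4.44 CPM per kb, and the libraries of neighbours in this order overlapped. *ENO2* at 7.79 ± 0.785 and *SLC16A3* at 2.98 ± 0.0906 CPM per kb were the least abundant. Both treatments moved *ENO2* and *LDHB* in opposite directions past each other. With CoCl2 *ENO2* ranked 8 at 22.1 ± 0.316 CPM per kb and *LDHB* ranked 9 at 19.2 ± 0.974. With OD *ENO2* ranked 7 at 59.3 ± 0.699, level with *SLC16A1* at 58.8 ± 0.943, and *LDHB* ranked last at 17.6 ± 1.45, below *SLC16A3* at 22.7 ± 0.831 CPM per kb. With merged exons as the length, *SLC16A3* remained last and *LDHB* second to last under OD, so that this last inversion depends on the length used. This length also swapped *PKM* with *LDHA* and *SLC16A1* with *PGAM1* in control cells and under CoCl2.

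**Figure D1:**
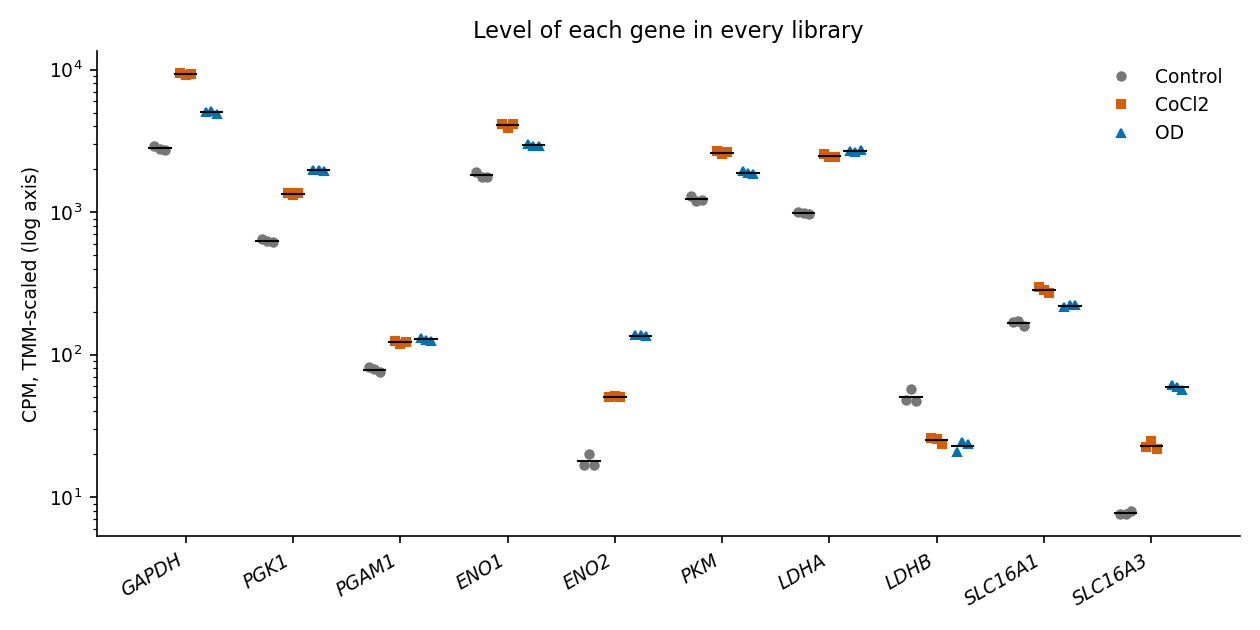
Level of the 10 genes in each of the 9 libraries, as TMM-scaled CPM on a log axis, by condition (grey circles control, orange squares CoCl2, blue triangles OD; bars are means of 3). *LDHB* is the only gene whose treated libraries all lie below the control libraries, and *ENO2* and *SLC16A3* stand highest under OD.

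The question of the first comparison is which of these genes responded to CoCl2. In all, 7 were called higher and *LDHB* was called lower by edgeR's quasi-likelihood test (adjusted p under 0.05 and log2 fold change above 1 in size), where 43.2% of all tested genes were called, 19.9% higher and 23.4% lower. The median log2 fold change of the 10 genes was 1.14, against -0.049 over all tested genes. With scaling by library size alone only 3 of the 10 were called, *GAPDH*, *SLC16A3* and *LDHB*, although all 10 kept their direction. The share of all tested genes called with this scaling was not computed, and their median log2 fold change was then -0.55. At an adjusted p under 0.05 and any fold, all 10 passed, as did 83.2% of all tested genes.

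With OD, 4 of the 10 were called higher (*PGK1*, *ENO2*, *LDHA* and *SLC16A3*) and *LDHB* was again called lower, where 13.3% of all tested genes were called, 9.09% higher and 4.16% lower. The median log2 fold change was 0.77, against -0.010 over all tested genes. The other 5 had log2 fold changes of 0.40 to 0.84 with an adjusted p under 0.05, which left them under the fold threshold and which 65.6% of all tested genes reached at any fold. Both comparisons share the control libraries. For all 10 genes the treated libraries did not overlap with the control libraries in either comparison, which also held for 83.4% of all tested genes under CoCl2 and for 68.0% under OD.

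**Figure D2:**
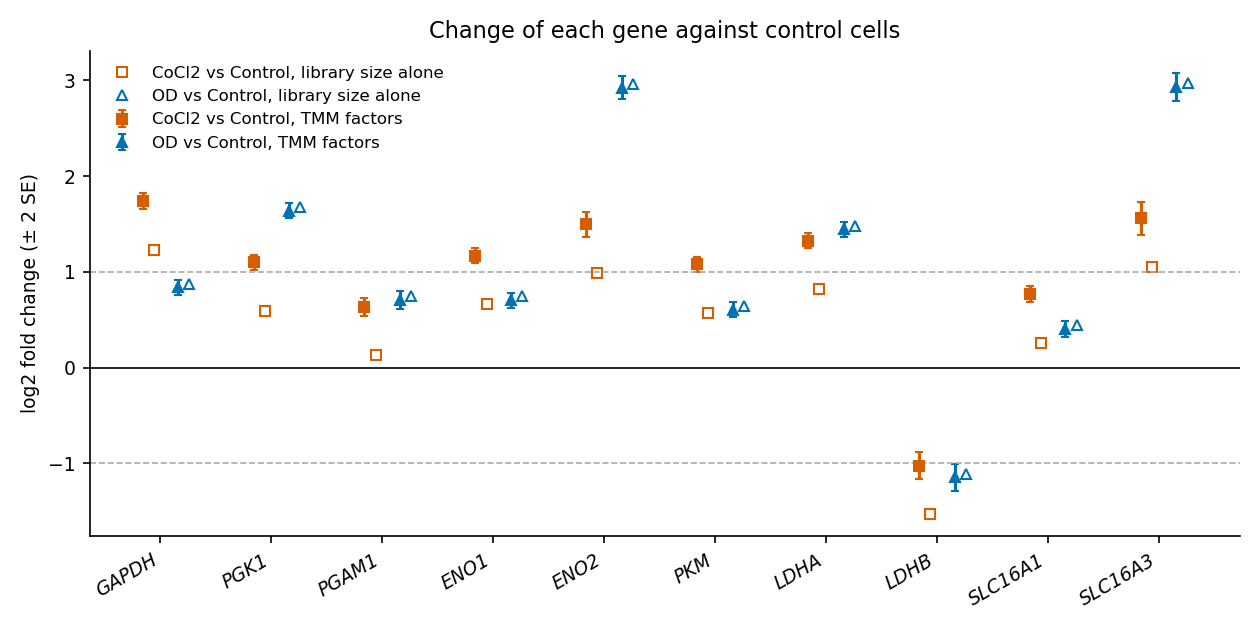
Log2 fold change of each gene against control cells under CoCl2 (orange squares) and OD (blue triangles), with TMM factors (filled, bars are 2 standard errors) and with library size alone (open); dashed lines mark the fold threshold. The open CoCl2 squares lie lower than the filled ones by a near-constant amount, and *ENO2* and *SLC16A3* reach 2.92 and 2.93 under OD.

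GAPDH, encoded at chr12:6534512-6538374 (GRCh38, as are all positions that follow), oxidises glyceraldehyde 3-phosphate and its transcript is a common reference gene. It stood at 2931, 2758 and 2721 CPM in the control libraries, at 9501, 9164 and 9361 under CoCl2 and at 5041, 5096 and 4884 under OD. Every treated library was above every control library, and the CoCl2 libraries were the highest. *GAPDH* rose 3.33-fold under CoCl2 (log2 fold change 1.74, SE 0.041; edgeR, adjusted p = 4.42e-45), and its log2 fold change under OD was 0.84 (SE 0.040; edgeR, adjusted p = 1.02e-27). Reads on 62 *GAPDH* pseudogene symbols came to 0.526% to 0.608% of the *GAPDH* count, with ranges that overlapped between conditions.

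PGK1 (chrX:77910739-78129295), the kinase of the next step, makes the first ATP of lower glycolysis. Its levels were 646, 627 and 614 CPM in control cells, 1367, 1313 and 1365 under CoCl2 and 1975, 1963 and 1941 under OD. Here the order of the treatments was the reverse of that of *GAPDH*. The log2 fold change was 1.10 under CoCl2 (SE 0.039; edgeR, adjusted p = 1.48e-35; 0.59 with library size alone) and 1.64 under OD (SE 0.039; edgeR, adjusted p = 1.04e-43).

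PGAM1 (chr10:97426191-97433444), which shifts the phosphate of phosphoglycerate, stayed under the fold threshold. Its mean level was 78.5 ± 3.16 CPM (SD, n = 3) in control cells, 122 ± 2.32 under CoCl2 and 128 ± 3.21 under OD, log2 fold changes of 0.63 and 0.703. With library size alone these were 0.13 and 0.74. This gene is the least certain of the 10, because 87.7% of the 75-base windows of its canonical transcript occur letter for letter elsewhere in the genome, against at most 4.75% for the other 9 genes. The sources used here do not state how reads that fit several places were counted, so the level of *PGAM1* may be incomplete.

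The enolases share the conversion of 2-phosphoglycerate to phosphoenolpyruvate. *ENO1* (chr1:8861000-8879190) stood at 1905, 1765 and 1773 CPM in control cells, at 4184, 3921 and 4138 under CoCl2 and at 3030, 2894 and 2929 under OD. It was called higher under CoCl2 alone (log2 fold change 1.17, SE 0.041), and its value under OD was 0.702 (SE 0.040). *ENO2* (chr12:6913745-6923698) stood at 16.8, 20.0 and 16.8 CPM in control cells, at 50.1, 51.5 and 50.4 under CoCl2 and at 137, 137 and 134 under OD. The 3 conditions formed separate steps, and *ENO2* rose 2.82-fold under CoCl2 and 7.59-fold under OD (edgeR, adjusted p = 7.41e-31 and 4.75e-48). PKM (chr15:72199029-72231819), the pyruvate kinase, makes the second ATP. Its mean level was 1239 ± 50.2 CPM (SD, n = 3) in control cells, 2617 ± 69.6 under CoCl2 and 1884 ± 50.5 under OD, log2 fold changes of 1.08 and 0.60. The M1 and M2 splice forms of *PKM* are counted as 1 gene and cannot be told apart in these values. The call of *PKM* under CoCl2 was lost with upper-quartile factors (0.98) and with library size alone (0.57).

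*LDHA* (chr11:18394560-18408425) rose with both treatments. It stood at 1002, 992 and 975 CPM in control cells, at 2563, 2431 and 2431 under CoCl2 and at 2702, 2645 and 2719 under OD. The log2 fold change was 1.32 under CoCl2 (SE 0.039; edgeR, adjusted p = 1.03e-39) and 1.44 under OD (SE 0.039; edgeR, adjusted p = 1.16e-40). *LDHB* (chr12:21635342-21757857) went the other way, from 47.8, 57.4 and 47.0 CPM in control cells to 25.9, 25.6 and 23.6 under CoCl2 and to 20.8, 24.3 and 23.7 under OD. Control replicate 2 was the highest of all libraries, and the treatments overlapped with each other but not with control cells. *LDHB* fell by 1.02 on the log2 scale under CoCl2 (SE 0.071; edgeR, adjusted p = 7.13e-20) and by 1.15 under OD (SE 0.068; edgeR, adjusted p = 5.42e-22). The call under CoCl2 sat at the fold threshold and was lost without control replicate 2 (-0.93), without CoCl2 replicate 3 (-0.98) and with RLE factors (-0.97). Of the canonical *LDHB* transcript, 76.5% of the bases also lie in exons of a readthrough gene annotated on the same strand in GENCODE release 44. How the authors counted reads that fit both genes is not given in the sources used here, so the level of *LDHB* is uncertain.

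The transporters differed in the same sense as the enolases. *SLC16A1* (chr1:112911847-112957593) had mean levels of 167 ± 6.81 CPM (SD, n = 3) in control cells, 285 ± 13.3 under CoCl2 and 221 ± 3.54 under OD, and its log2 fold changes of 0.77 and 0.40 stayed under the fold threshold and turned their order with library size alone (0.26 and 0.44). *SLC16A3* (chr17:82217934-82261129) stood at 7.59, 7.65 and 8.02 CPM in control cells, at 22.5, 24.7 and 21.7 under CoCl2 and at 60.99, 59.3 and 56.7 under OD. It rose 2.94-fold under CoCl2 and 7.62-fold under OD (edgeR, adjusted p = 2.87e-25 and 2.21e-42), on 141 to 156 counts per control library. *BSG*, whose product basigin accompanies MCT1 and MCT4 to the membrane, had log2 fold changes of 0.91 under CoCl2 and 0.27 under OD (edgeR, adjusted p = 1.29e-30 and 3.13e-08). Both stayed under the fold threshold, and 83.2% and 65.6% of all tested genes had an adjusted p under 0.05 at any fold. Other scalings were not examined for *BSG*.

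Ratios of paralogs within a library do not depend on the scaling of the libraries, and the length of the genes cancels when the ratios of 2 conditions are compared. The log2 ratio of *LDHA* to *LDHB* counts was 4.39, 4.11 and 4.38 in control cells, 6.63, 6.57 and 6.69 under CoCl2 and 7.02, 6.76 and 6.84 under OD. It shifted by 2.33 under CoCl2 (SE 0.096) and by 2.58 under OD (SE 0.12), which is 5.04-fold and 5.99-fold. Of LDH transcripts per kilobase, *LDHB* made up 8.09% ± 0.825 (SD, n = 3) in control cells, 1.71% ± 0.069 under CoCl2 and 1.45% ± 0.128 under OD, within the limit on the level of *LDHB* given above. The treatments differed from each other by only -0.25 (SE 0.083, CoCl2 minus OD).

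The ratio of *ENO2* to *ENO1* separated the treatments. Its log2 value was -6.82, -6.47 and -6.72 in control cells, -6.38, -6.25 and -6.36 under CoCl2 and -4.47, -4.40 and -4.45 under OD. The shift was 0.34 under CoCl2 (SE 0.11), 0.26 without control replicate 1 and 0.44 without control replicate 2, and 2.23 under OD (SE 0.11), and the treatments differed by -1.89 (SE 0.046). Of *ENO1* and *ENO2* transcripts per kilobase, *ENO2* thus made up 0.761% ± 0.098 (SD, n = 3) in control cells. This share was 0.955% ± 0.047 under CoCl2 and 3.46% ± 0.088 under OD. With merged exons as the length, the shares were 1.19% in control cells, 1.49% under CoCl2 and 5.32% under OD. The sum of this pair was highest under CoCl2, at 2314 ± 78.6 CPM per kb against 1716 ± 39.8 under OD and 1026 ± 43.7 in control cells. Unlike the ratio, this sum depends on the scaling, and with library size alone neither enolase was higher under CoCl2 than under OD (-0.078 for *ENO1* and -1.97 for *ENO2*).

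The ratio of *SLC16A3* to *SLC16A1* behaved in the same order. Its log2 value was -4.48, -4.50 and -4.31 in control cells, -3.73, -3.53 and -3.64 under CoCl2 and -1.83, -1.90 and -1.98 under OD. The shift was 0.795 under CoCl2 (SE 0.081) and 2.53 under OD (SE 0.073), and the treatments differed by -1.73 (SE 0.071). *SLC16A3* made up 6.29% ± 0.418 (SD, n = 3) of the transcripts of this pair per kilobase in control cells, 10.4% ± 0.629 under CoCl2 and 27.9% ± 1.05 under OD, or 3.09%, 5.25% and 15.5% with merged exons as the length. The sum of the pair was 84.7 ± 3.78 CPM per kb under CoCl2 and 81.5 ± 0.300 under OD, against 47.5 ± 1.73 in control cells, and it too depends on the scaling. In all 9 comparisons of the 3 ratios the libraries of the 2 conditions did not overlap. Of single tested genes, 83.4% did not overlap under CoCl2, 68.0% under OD and 83.8% between the treatments. The share among ratios of other gene pairs was not computed. The exact two-sided permutation test gave p = 0.1 each, which is the smallest value that 3 against 3 libraries allow (Benjamini-Hochberg adjusted p = 0.1 over the 9 tests).

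**Figure D3:**
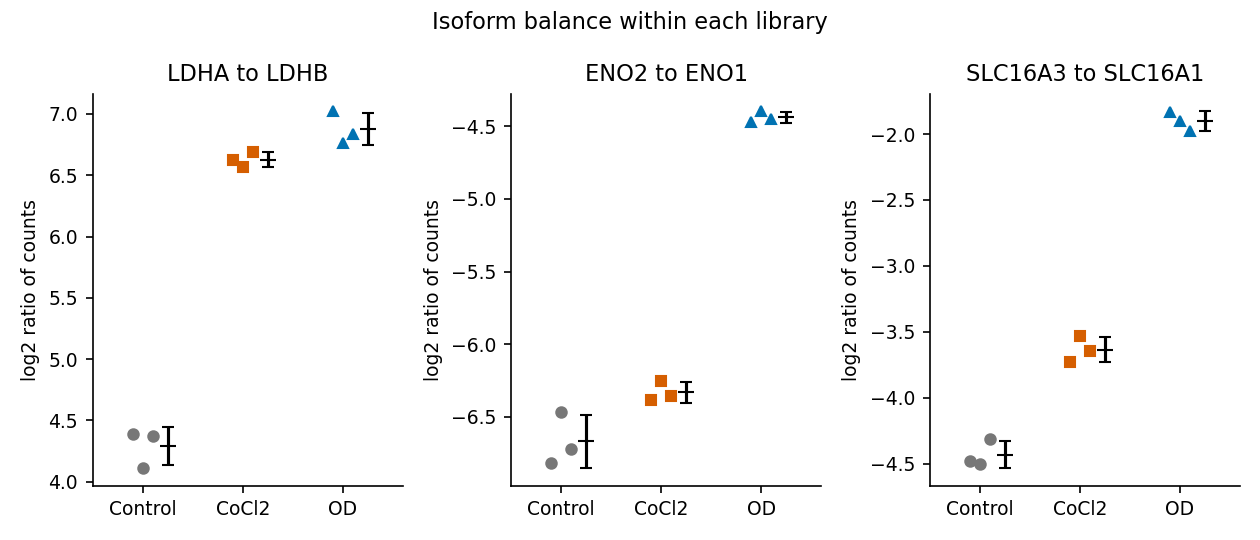
Log2 ratio of counts of *LDHA* to *LDHB*, *ENO2* to *ENO1* and *SLC16A3* to *SLC16A1* in each library (points) with mean ± SD of 3 (black), on separate vertical axes that do not start at 0. Both treatments lie far above control cells for LDH, and OD alone stands well above the others for the enolases and the transporters.

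In the direct comparison of CoCl2 with OD, *ENO2* and *SLC16A3* were called lower under CoCl2 and none of the 10 was called higher, where 41.3% of all tested genes were called, 17.5% higher and 23.8% lower. At any fold 8 of the 10 had an adjusted p under 0.05, against 83.5% of all tested genes, and 9 did not overlap, against 83.8%. The difference was -1.43 (SE 0.052) for *ENO2* and -1.37 (SE 0.064) for *SLC16A3* on the log2 scale (edgeR, adjusted p = 7.75e-35 and 2.24e-29). *GAPDH* was higher under CoCl2 by 0.90 (SE 0.040), or by 0.35 with library size alone, and *PGK1* was lower by 0.54 (SE 0.038), or by 1.09 with library size alone. For *LDHA* the difference was -0.12 (SE 0.038; edgeR, adjusted p = 0.00376), with -0.67 for library size alone and -0.075 for RLE factors (edgeR, adjusted p = 0.0691). *ENO1*, *PKM* and *SLC16A1* were higher under CoCl2 by 0.47, 0.47 and 0.37, but with library size alone these values turned to -0.078, -0.072 and -0.18. *PGAM1* (-0.070) and *LDHB* (0.12) missed the threshold on the adjusted p (edgeR, 0.142 and 0.135), with intervals of 2 standard errors from -0.16 to 0.020 and from -0.032 to 0.28. *PGAM1* passed it without a count filter (-0.14), with 10 or more counts required per library (-0.12), with upper-quartile factors (-0.20) and with library size alone (-0.62; edgeR, adjusted p from 2.29e-17 to 0.0132). *LDHB* passed it in opposite directions, with RLE factors (0.17; edgeR, adjusted p = 0.0431) and with library size alone (-0.42; edgeR, adjusted p = 7.7e-06). The doses differ, 300 μM of a metal salt against 5 μM of OD, so these values compare 2 exposures and not the potency of the agents.

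The ratio of each gene to *GAPDH* in the same library was added after the data were seen and is given as a description, with no test. Under CoCl2 no other of the 10 genes rose as much as *GAPDH*, so that the other genes had to fall behind it. With CoCl2, the ratio of 8 of the other 9 genes lay below all control libraries, as did that of 86.9% of all tested genes, and *SLC16A3*, at -0.17 (SE 0.087), overlapped with control cells. With OD, 4 genes gained on *GAPDH*, against 6.73% of all tested genes, *ENO2* by 2.096, *SLC16A3* by 2.09, *PGK1* by 0.802 and *LDHA* by 0.604. These are the genes whose log2 fold change under OD exceeds that of *GAPDH*, so the gain restates the values above. *PGAM1* and *ENO1* changed against *GAPDH* by only -0.13 each under OD. For all 9 genes the ratio to *GAPDH* was lower under CoCl2 than under OD, by 0.43 for *ENO1* and *PKM* to 2.33 for *ENO2*, and no library of the 2 treatments overlapped, which held in this direction for 72.5% of all tested genes. A ratio of this kind shows that the genes changed unequally and not which of them was stable.

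**Figure D4:**
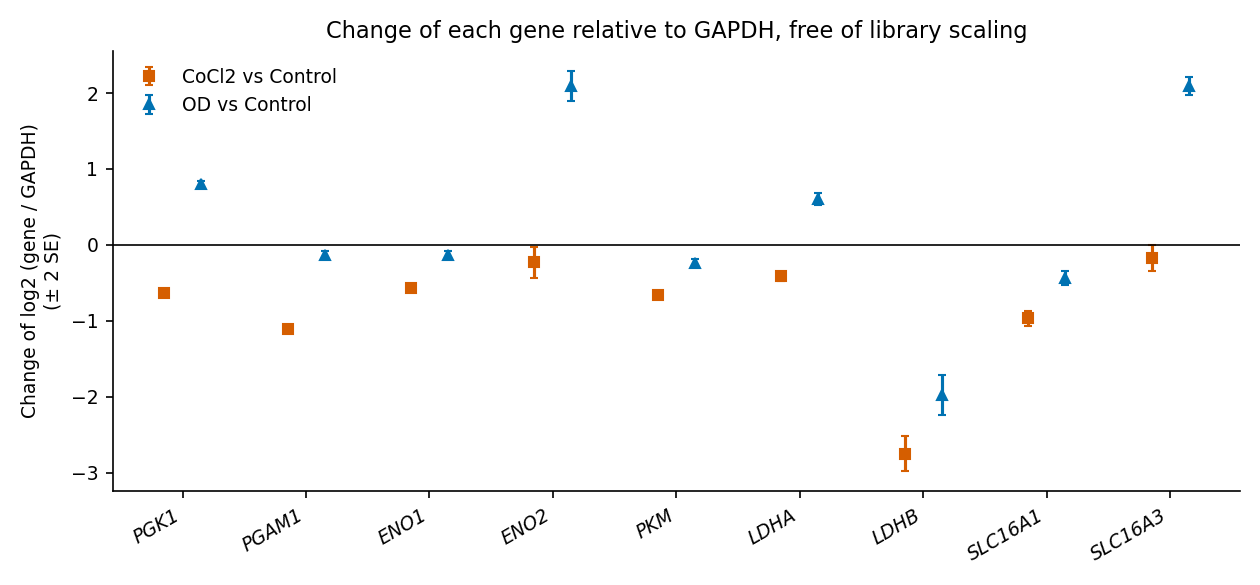
Change of the log2 ratio of each gene to *GAPDH* against control cells under CoCl2 (orange squares) and OD (blue triangles), bars are 2 standard errors. All CoCl2 values lie below 0, and *PGK1*, *ENO2*, *LDHA* and *SLC16A3* lie above 0 under OD.

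Of 13 genes of upper glycolysis, which carry glucose to triose phosphate, 10 were tested. Of all tested genes 43.2% were called for CoCl2 and 13.3% for OD. With CoCl2, *HK2*, *HKDC1*, *ALDOA* and *ALDOC* were called higher and *PFKL* and *PFKM* were called lower, around a median log2 fold change of 0.76. With OD, *HK1*, *HK2*, *HKDC1*, *ALDOA* and *ALDOC* were called higher and none was called lower, around a median of 0.93. At an adjusted p under 0.05 and any fold, 7 were higher and 3 lower under CoCl2, and 9 were higher and 1 lower under OD. Of all tested genes, 83.2% and 65.6% reached this in either direction. Of the phosphofructokinase subunits, *PFKL* fell by 1.96 and *PFKM* fell by 1.59 on the log2 scale under CoCl2. The remaining subunit, *PFKP*, was the most abundant of them in control cells, at 424 to 434 CPM against at most 115 for the others. Its log2 fold changes were -0.35 under CoCl2 and 0.41 under OD. Of the 10 lower glycolysis and transport genes *LDHB* alone was called lower under CoCl2, where 23.4% of all tested genes were. The aldolase pair also split between the treatments, with 2.91 for *ALDOA* and 2.17 for *ALDOC* under CoCl2 and 1.35 and 3.08 under OD. In control cells *ALDOA* stood at only 14.9 to 17.3 CPM and *ALDOC* at 18.4 to 21.1 CPM. Overlap with other annotated genes was not examined for this pair, so the level of *ALDOA* may be incomplete.

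Of 14 other paralogs of the same steps, 5 were tested, and *PGK2*, *PGAM2*, *LDHC* and *GAPDHS* were among the 9 that did not pass the expression filter. *ENO3*, the muscle-type enolase, stood at 4.04 to 4.66 CPM in control cells, with log2 fold changes of -0.76 (SE 0.16) for CoCl2 and 0.34 (SE 0.13) for OD, and was called lower in CoCl2 against OD (-1.0999, SE 0.15). *BPGM*, which makes 2,3-bisphosphoglycerate in a branch beside PGK1, rose from 5.83 to 7.42 CPM in control cells to 27.7 to 31.2 under CoCl2 (log2 fold change 2.12, SE 0.095; edgeR, adjusted p = 4.62e-30). With OD its value was -0.30 (SE 0.12; edgeR, adjusted p = 0.0301). *LDHD*, the mitochondrial D-lactate dehydrogenase, fell by 3.55 under CoCl2 and by 1.14 under OD on the log2 scale, from 2.55 to 3.605 CPM in control cells. *SLC16A7* (MCT2) was at 0.735 CPM or less in every library and was called lower under CoCl2, and *SLC16A8* was called lower under CoCl2 and higher under OD at 1.15 CPM or less.

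Of 8 genes of the pyruvate carrier, the pyruvate dehydrogenase complex and pyruvate carboxylase, which take pyruvate into mitochondrial metabolism, all were tested and none was called with either treatment (43.2% and 13.3% of all tested genes were), and the medians were -0.13 under CoCl2 and -0.17 under OD. At an adjusted p under 0.05 and any fold, 2 were higher and 4 lower under CoCl2, and 2 were higher and 5 lower under OD, against 83.2% and 65.6% of all tested genes in either direction. *PC*, the pyruvate carboxylase, came closest to the threshold, with a log2 fold change of 0.997 under OD (SE 0.072). Of 7 genes of the NADH shuttles, which like LDH regenerate cytosolic NAD+, *GPD1* was called lower under CoCl2 (-2.92, SE 0.39), on at most 1.83 CPM. *GOT1* was the 1 gene of this list that was higher with both treatments at an adjusted p under 0.05, with 0.63 and 0.29, and *GOT2* had -0.84 and -0.62.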

How the data were processed

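Messenger RNA of uCaco-2 was sequenced as single-end 75-nucleotide reads from stranded poly(A) libraries. The authors ran FastQC 0.11.9, trimmed with cutadapt 2.10, mapped with STAR 2.7.5b to GRCh38.p13 and deposited raw, not normalized counts per gene symbol, built on GENCODE release 34. The counting tool, its strand setting and its treatment of reads that fit several genes are not given in the sources used here.

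Low genes were removed with filterByExpr, and edgeR 4.0.16 (R 4.3.3) fitted a robust quasi-likelihood model with TMM factors and a mean per condition to the 9 libraries. P-values were adjusted over 15944 genes (Benjamini-Hochberg), and a call needed 0.05 and a log2 change beyond 1 in either direction. Paralog ratios used an exact permutation test. Lengths, overlaps and repeated 75-base windows came from GENCODE release 44 on GRCh38, promoters from RefSeq. Replicates differed beyond sampling noise (chi-square per degree of freedom 1.82 to 3.32). Of these steps only the edgeR fit was tested on simulated data, for CoCl2 against control cells and with fewer changed genes than were called here.

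Alternatives were fits on 6 libraries, DESeq2 1.42.0, other scalings and count filters, a replicate block, each replicate left out, glmTreat and the adjusted p alone. The merged exon length and the ratio to GAPDH were added after the data were seen. The 10 genes and all lists were chosen with earlier results of these data known. All 10 are named, with at most 4 genes of the largest change per other list and comparison. Other called, marker and untested genes, such as HKDC1, were named after their values were seen. Protein sequences were not used here.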

Additional observations from a re-analysis of the deposited data

How the results depend on the processing

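Over 18 alternatives for each of the 30 fold changes of the 10 genes (540 values), 525 kept their direction and their side of the threshold, 9 lost the call, 1 gained it and 5 changed sign. The sign changes were all in the comparison of CoCl2 with OD, with library size alone for ENO1 (-0.078), PKM (-0.072), LDHB (-0.42) and SLC16A1 (-0.18) and with upper-quartile factors for LDHB (-0.0092). Library size alone also left 3 called genes in place of 8 with CoCl2 and added PGK1 to the comparison of the treatments, in which 3 genes were then called. This scaling lowers all CoCl2 values by a common amount. With the adjusted p alone, 10 genes were called with CoCl2, 10 with OD in place of 5, and 8 between the treatments in place of 2. Leaving out each replicate in turn gave 7 to 8 calls with CoCl2, 5 with OD and 2 between the treatments. A test against a log2 fold change of 1 (glmTreat) called 7, 4 and 2. Of all tested genes, 43.2%, 13.3% and 41.3% were called in the main fit, and 83.2%, 65.6% and 83.5% with the adjusted p alone. These shares were not computed for the other alternatives. All 81 alternative values of the 9 paralog ratios kept their direction. Not all of them could change, since a replicate block leaves the mean difference of a ratio as it is. Adding pseudogene counts also left the ratio of ENO2 to ENO1 unchanged. The check of the replicate numbers does not settle whether they pair the libraries. Same-numbered libraries of different conditions had correlations of their deviations from -0.093 to 0.27, against -0.30 to 0.23 for other numbers. For 3 of 9 libraries both same-numbered partners correlated more closely than all others. With the replicate number as a block, 8, 5 and 2 genes were called. SLC16A3, ENO2 and LDHB had the largest SE (0.052 to 0.087, against 0.038 to 0.041 for GAPDH, PGK1, ENO1, PKM and LDHA) and control counts of 141 to 1170 per library. LDHB and ENO2 also varied most between control replicates, with a CV of 11.4% and 10.1% against 3.04% for SLC16A3.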

Other observations

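The genes whose log2 CPM followed each of the 10 most closely over the 9 libraries, among 9020 genes whose mean reached 10 CPM, are given as a description. The 9 libraries form 3 groups, so that high correlations are common, and the points share the scaling of each library. For PGK1 the nearest gene was ALDOC (Pearson r = 0.999), for LDHA it was TP53INP2 followed by BNIP3 (both r = 0.999), and for SLC16A3 it was SLC12A7 followed by PFKFB4 (r = 0.998 and 0.996). For ENO2 it was KIAA0040 (r = 0.997). GAPDH was closest to MEF2D and NPC1 (both r = 0.999), ENO1 to ATF4 (r = 0.999), PKM to NPC2 (r = 0.998), SLC16A1 to INSIG1 (r = 0.998) and PGAM1 to ACSL5 (r = 0.996). LDHB, the gene that was lower with both treatments, was closest to TRMT11 (r = 0.996).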
